A study of Mus musculus with 8 samples.

Results

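The Hedgehog pathway was followed through 8 lists of N6-methyladenine (6mA) peaks by 10 of its genes: the ligand Shh, the receptor Ptch1, the co-receptors Cdon and Boc, the ligand-binding inhibitor Hhip, the transducer Smo, the negative regulator Sufu, and the transcription factors Gli1, Gli2 and Gli3. They are 10 of the 21900 protein-coding genes of the reference table. Their peaks were taken as those that the authors' annotation gave to one of these symbols, counted once per peak. This gave 101 of 90798 peaks, 23 in brain and 78 in cultured cells. Of the 10 genes, 9 had at least 1 peak, and Gli1 had none in any list, as was the case for 33.7% of all protein-coding genes.

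6mA is a methyl mark on adenine that is well known in bacteria and rare in mammalian DNA. In the Hedgehog pathway, a secreted ligand binds Ptch1 and so releases Smo from inhibition. Smo then acts through Sufu on the Gli factors, which switch target genes on or off. In the embryo, Shh from the notochord and floor plate patterns the ventral neural tube, and mouse mutants with too much Hedgehog signalling, such as those lacking Ptch1, often fail to close the neural tube.

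The study immunoprecipitated sonicated mouse DNA with a 6mA kit and kept part of it as input. NTD brains came from embryos with neural tube defects, whose dams had a low-folate diet and were injected with methotrexate, a folate antagonist, at 1.5 mg/kg on gestational day 7.5. CON brains came from normal embryos recorded as treated with normal saline, and the labels do not state the diet of their dams or the mouse strain. Neural tube closure was scored between E9.5 and E10.5. For either brain group 3 immunoprecipitations gave 3 peak lists, all called against 1 input of that group. No expression was measured, so the labelled tissue and cells could not be checked against marker genes. FA0 cells were mouse embryonic stem cells of the strain Sv/129 grown without folate, and FA4 cells were the same line grown with 4 mg/L of folate. Each cell condition had 1 list. Defect, drug, the single input of each group and any difference in diet cannot be told apart in the brain comparison. Spread among inputs enters no p-value here. Whether the immunoprecipitations of a group used different embryos is not stated in the labels, so a p-value here measures the spread among immunoprecipitations, which may be technical. With 3 lists against 3, the smallest exact two-sided p is 0.1.

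The lists held 5790, 5620 and 7100 peaks in NTD, 2797, 6614 and 3992 in CON, 38699 in FA0 and 20186 in FA4, and the brain lists are called NTD 1 to 3 and CON 1 to 3 in that order. The median peak of each list had 8 or 9 tags, the authors' count of reads at the peak. The deposited fold equals tags plus 1 divided by background plus 1, so the background of each peak could be recovered, and 1 value of it was by far the commonest in each list (1.86 to 2.69 tags). A peak over 1% above that value is said to have a raised background. Of the peaks of a list, 95.3% to 99.2% had a deposited q above 0.05. Total read numbers were not used here, so depth is known at the peaks alone.

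Smo and Hhip are shown first by sequence, because they were the genes with peaks that the authors placed at a promoter. Each line gives the 250 bases before a start of the gene in RefSeq (GRCm38.p6, the assembly of mm10), 5′ to 3′ along the gene's own strand. Every adenine, the base that can carry 6mA, is in capitals.

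Smo chr6:29735247-29735496 (plus strand): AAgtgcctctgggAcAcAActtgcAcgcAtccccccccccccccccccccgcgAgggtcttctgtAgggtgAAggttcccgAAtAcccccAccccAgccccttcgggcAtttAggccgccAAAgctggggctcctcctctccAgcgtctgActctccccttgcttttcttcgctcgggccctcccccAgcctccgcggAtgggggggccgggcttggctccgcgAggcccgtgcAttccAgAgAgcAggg

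Hhip chr8:80058009-80058258 (minus strand): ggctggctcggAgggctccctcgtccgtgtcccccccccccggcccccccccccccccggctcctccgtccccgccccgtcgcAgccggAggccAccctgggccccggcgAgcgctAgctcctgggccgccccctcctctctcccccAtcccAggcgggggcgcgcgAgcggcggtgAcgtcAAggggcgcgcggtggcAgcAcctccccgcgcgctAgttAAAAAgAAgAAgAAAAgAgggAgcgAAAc

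The Smo window had 32 adenines and 31.6% A or T, and the Hhip window had 33 adenines and 24% A or T, both under the median of 47.6% over 32851 RefSeq promoter windows. Such a window was in the table for 7 of the 10 genes, namely Hhip, Ptch1, Cdon, Smo, Sufu, Gli2 and Gli3. Of these, Cdon alone was above the median, at 57.2%. The Ptch1 and Cdon windows, and part of the Hhip window, lie inside the gene's span in the reference table. Overlap was searched in windows of 300 bases, which add the 50 bases after the start. No peak of any list overlapped one of the 7 windows, while the lists overlapped 0.0457% to 0.621% of all windows. The nearest peaks were those of FA0, which lay 751 and 1572 bp from the Hhip window and 1178 bp from the Smo window. The letters GACCACCCA, the consensus that Gli proteins bind, were searched on both strands of the 300 bases. They were in none of the 7 windows and in 0.253% of all windows.

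By the authors' gene assignment, the 10 genes had fewer peaks in every NTD list than in any CON list. The counts were 1, 2 and 2 peaks in NTD, against 4, 10 and 4 peaks in CON. That is 1.67 ± 0.577 peaks per list in NTD and 6 ± 3.46 per list in CON (SD, n = 3 each), with no overlap between the groups. Because the genes and the question were chosen with results known, no p is given for this sum. Without CON 2, the list with 10, the difference of means was -2.33 instead of -4.33. The number of genes with a peak was 1, 2 and 2 of 10 in NTD (1.67 ± 0.577, SD, n = 3), where 11.5%, 11.2% and 13.4% of all genes had one. In CON it was 3, 6 and 4 of 10 (4.33 ± 1.53, SD, n = 3), where 5.95%, 12.9% and 8.5% of all genes had one. By assignment, NTD lists thus lay nearer the share of all genes than CON lists did. Smo, whose region was included because all 6 brain lists hold it, counts in each list. Without Smo, 0, 1 and 1 genes had a peak in NTD lists, against 2, 5 and 3 in CON lists. The genes are long, with a median of 79.9 kb against 17.1 kb for all genes.

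The groups overlapped when peaks were counted by position, as any peak inside the span of a member. The lists held 4, 5 and 3 such peaks in NTD, against 4, 5 and 6 in CON. Their means were 4 ± 1 per NTD list and 5 ± 1 per CON list (SD, n = 3 each). By position, 3, 5 and 3 of the 10 genes had a peak in NTD lists, where 8.26%, 8.22% and 9.89% of all genes did. The same held for 3, 5 and 4 of 10 in CON lists, where 4.42%, 9.58% and 6.25% of all genes did. This second count was chosen after the data were seen.

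The count by position takes in 18 peaks that lie inside a member but carry another gene's symbol. Of these 18, 8 were in NTD, 6 in CON and 4 in the cells. In each of the 18 cases the start of the named gene lay nearer to the peak than the start of the Hedgehog gene. In brain, 6 peaks inside Gli3 were given to Gm6556, whose start is 0.9 kb from that of Gli3, 5 inside Gli2 to the microRNA gene Mir6346, 2 inside Sufu to Trim8 and 1 inside Ptch1 to Fancc. These 14 brain peaks had 6 to 12 tags, and none had a q at or below 0.05. In the other direction, peaks assigned to a member but lying outside it, such as those of Shh, do not enter the count by position.

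**Figure D1:**
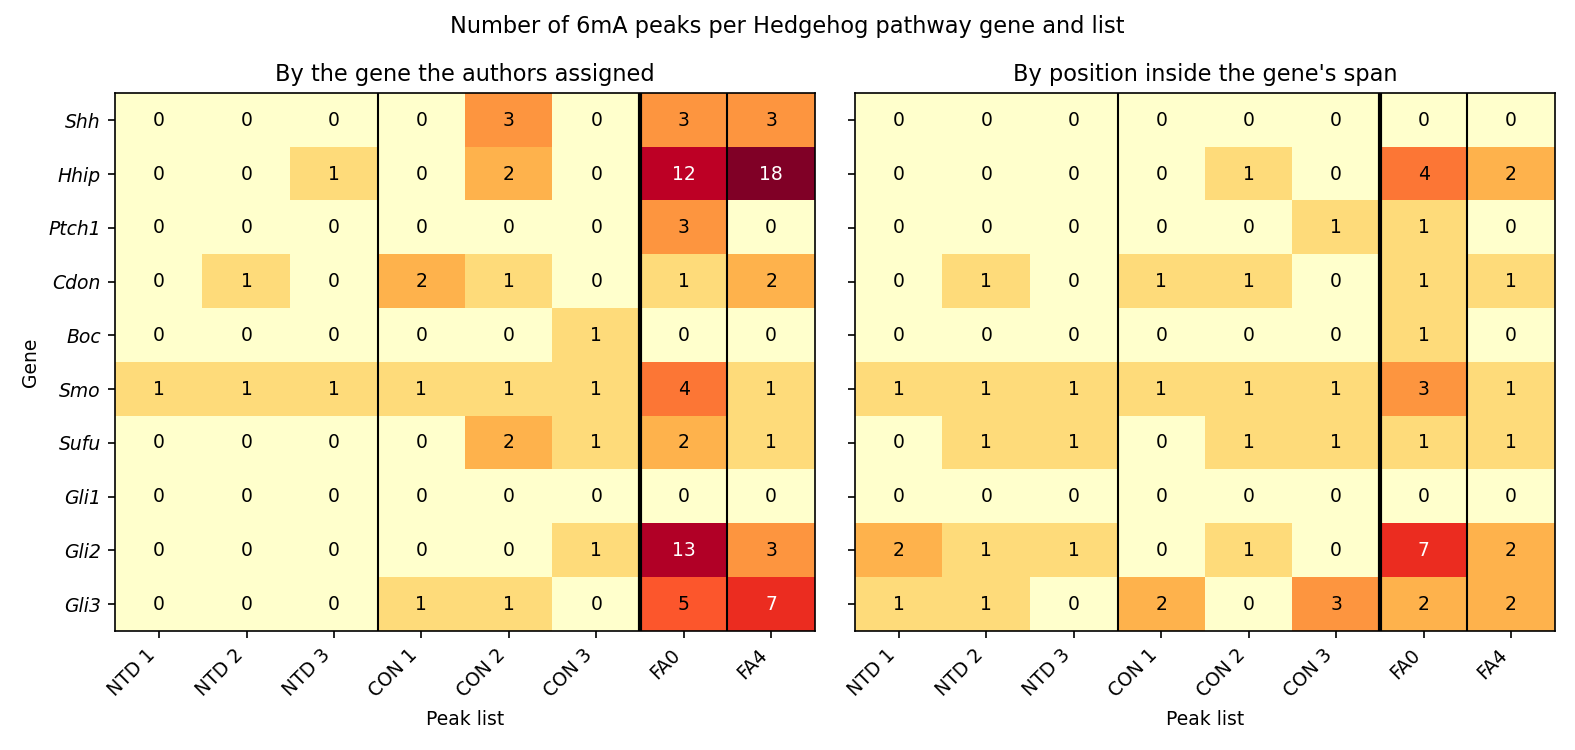
Number of peaks per Hedgehog pathway gene (rows) in each of the 8 lists (columns), by the authors' gene assignment (left) and by position inside the gene (right); darker cells hold more peaks. On the left the NTD columns are nearly empty outside Smo, while on the right Gli2 has a peak in all 3 NTD lists.

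No gene passed a test in either count. Over 8374 genes with a brain peak by assignment, an exact permutation test over the 20 ways of dividing 6 lists gave each of the 8 members with a brain peak an adjusted p of 1 (Benjamini-Hochberg), and no gene at all had an unadjusted p under 0.05, since the design does not reach it. By position, 5993 genes were tested and the smallest adjusted p was 1. By assignment, 0 of the 10 members were present in each of the 3 NTD lists and absent from CON, against 0.365% of genes, and 0 had the opposite pattern, against 0.0731%. By position these were also 0 of 10, against 0.269% and 0.0731% of genes. No single member had more peaks in every NTD list than in every CON list or the opposite, which 0.443% and 0.0868% of genes did. A group of 5 members, Shh, Boc, Sufu, Gli2 and Gli3, had a peak assigned in CON alone, against 11% of all genes. No member had one in NTD alone, against 16.4% of all genes. By position, Sufu, Gli2 and Gli3 of that group had peaks in NTD lists as well.

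The ligand Shh had brain peaks in 1 list. The authors assigned it 0, 0 and 0 peaks in NTD, against 0, 3 and 0 in CON (exact permutation p = 1). The 3 peaks lay 62.6, 86.8 and 185.7 kb upstream of the start with 7 or 8 tags, and all 3 were within 9530036O11Rik, a long noncoding RNA gene at chr5:28466984-28719209 that adjoins Shh. None was near the 10.3 kb of Shh itself. In the cells, FA0 had 3 Shh peaks, 305.6 to 337 kb upstream, and FA4 had 3, 77.9 to 351 kb upstream. Of these, 0 FA0 peaks and 2 FA4 peaks lay within 9530036O11Rik. The sequence upstream of Shh is known to hold its distant enhancers, but no peak of 1 list overlapped that of another here.

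Hhip, a membrane protein that binds and sequesters Hedgehog ligands, had 0, 0 and 1 brain peaks in NTD, against 0, 2 and 0 in CON (exact permutation p = 1). The NTD peak was 34.6 kb upstream with 6 tags. The CON peaks were 12.3 kb upstream with 7 tags and in an intron 79.3 kb from the start with 6 tags. All 3 were at the lists' common background.

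The receptor Ptch1, itself a target gene of the pathway, was assigned no brain peak. By position 1 CON peak of 9 tags lay inside it, at chr13:63510355-63510605, which the authors gave to Fancc. Cdon, a cell surface co-receptor, had 0, 1 and 0 peaks in NTD, against 2, 1 and 0 in CON (exact permutation p = 0.7). One of the CON peaks, at chr9:35504708-35505047, was the single exonic peak among all member peaks, with 11 tags and a fold of 3.36. Its fold was above 90.7% of the peaks of its list, and its q was above 0.05. Boc, the paralogue of Cdon, had 1 brain peak, 13.3 kb upstream in 1 CON list, with 8 tags.

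Smo, the membrane protein that carries the signal across the membrane, was the only member found in every list. Its region lies inside the gene, 12.7 kb from the start, and the sequence that all 8 lists share is chr6:29748178-29748395, 218 bp long. The region was held by all 6 brain lists, which was the reason for including it, so this presence is a description. Among all genes, 0.37% had a peak in all 6 brain lists, and 0.0707% of the 31119 merged brain regions were held by all 6. Both cell lists also had it, which the selection had not used, but 21 of the 22 brain regions common to all 6 lists were in both cell lists. The authors' tables placed it upstream of a shorter transcript in brain, 4.2 or 4.3 kb from that start, and in an intron of the main transcript in the cells. It is the same sequence.

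The Smo region had 40, 44 and 59 tags in NTD lists, against 69, 58 and 59 tags in CON lists, with 54 in FA0 and 33 in FA4. The means were 47.7 ± 10 tags in NTD and 62 ± 6.08 in CON (SD, n = 3 each), and the groups overlapped, because 1 NTD list had more tags than 1 CON list. Its tag count exceeded that of 98.5% to 99.4% of brain peaks, list by list. The background was also high, with 27.4, 30.6 and 23.5 tags in NTD, against 27.5, 18.9 and 28.1 tags in CON. These values are 8.85 to 14.4 times the common background of the list.

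The fold over background was low in several lists. It was 1.44, 1.42 and 2.45 in NTD, against 2.46, 2.97 and 2.06 in CON, with 2.36 in FA0 and 1.53 in FA4. Only 0.225% and 0.125% of the peaks of NTD 1 and NTD 2, and 0.0545% of those of FA4, had a lower fold. With the brain lists cut by fold to the length of the shortest, the region was in 0 of 3 NTD lists and in CON 1 and CON 2. CON 1 was itself the shortest list and was not cut, so its outcome was fixed in advance. Its fold was 2.46, against 2.45 in NTD 3, which lost the region. The deposited q was 1, 1 and 6.15e-05 in NTD, against 2.2e-06, 2.9e-08 and 0.0208 in CON, with 0.000286 in FA0 and 1 in FA4. The region thus passed a q of 0.05 in 1 of 3 NTD lists, 3 of 3 CON lists and FA0. Folds are not compared between lists by a test, since each list has its own background and the lists of a group share 1 input.

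**Figure D2:**
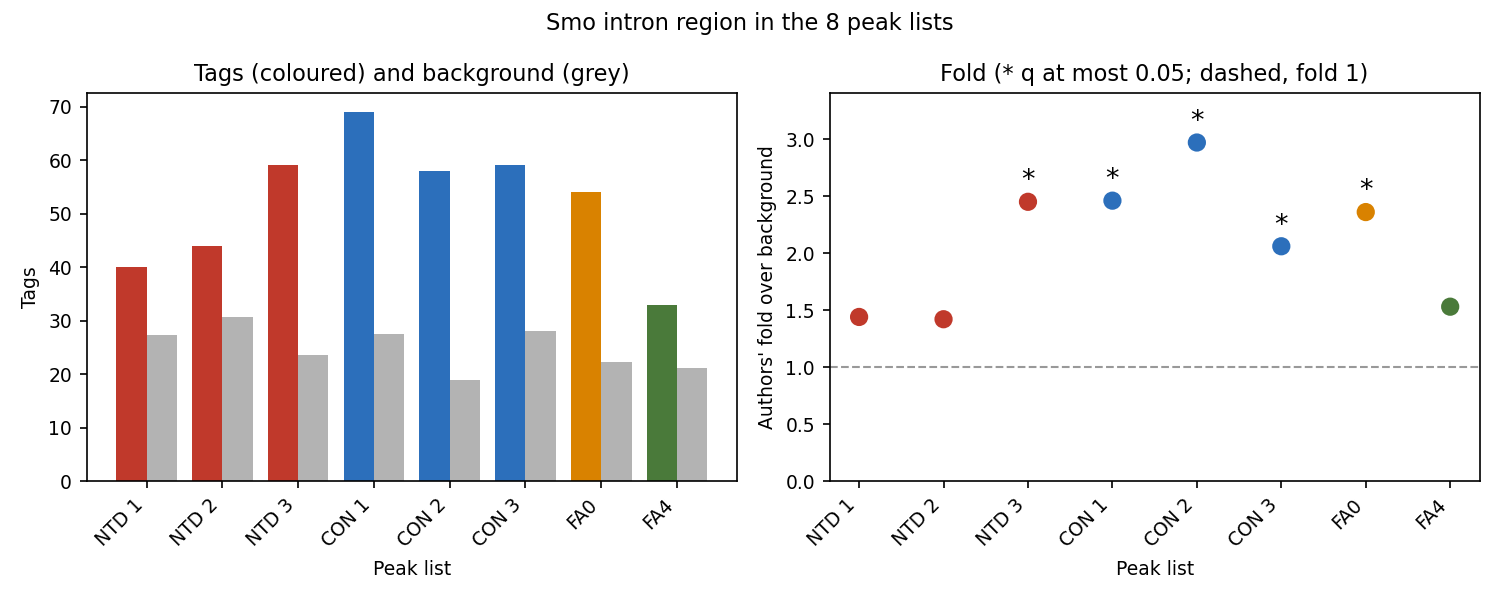
Tags in the Smo peak (coloured bars) beside the background recovered from the fold (grey bars) on the left, and the authors' fold on the right, for each of the 8 lists; stars mark a q of at most 0.05. Background is raised in every list, and the NTD folds of 1.42 to 2.45 overlap the CON folds of 2.06 to 2.97.

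The regions whose fold profile over the 6 brain lists was nearest to that of Smo, by the Euclidean distance of log2 fold over the 6 lists, were those assigned to Fgf14 (distance 0.94), LOC108168644 on chromosome Y (1.09) and Mrgprd (1.11). By median tags Smo stood 20th of the 22 regions common to all 6 brain lists, with 58.5 tags.

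Sufu, which holds Gli proteins in the cytoplasm, was assigned 0, 0 and 0 brain peaks in NTD, against 0, 2 and 1 in CON (exact permutation p = 0.4). By position it had 0, 1 and 1 peaks in NTD, against 0, 1 and 1 in CON. The NTD peaks were those given to Trim8, and 1 of them had 12 tags and a fold of 4.15.

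Of the transcription factors, Gli2, the main activator of the pathway in the ventral neural tube, had a difference of opposite sign in the 2 counts. By assignment it had 0, 0 and 0 peaks in NTD, against 0, 0 and 1 in CON (exact permutation p = 1), the CON peak lying 27.3 kb upstream. By position it had 2, 1 and 1 peaks in NTD, against 0, 1 and 0 in CON. The means were 1.33 ± 0.577 in NTD and 0.333 ± 0.577 in CON (SD, n = 3 each; exact permutation p = 0.3, adjusted p = 1), and the groups overlapped. A peak in the span in all 3 NTD lists was found for 1.43% of all genes, and Gli2 and Smo were the members that had it. A peak in all 3 CON lists was found for 0.817% of genes, and of the members Smo alone had it. The Gli2 peaks of NTD 1 and NTD 3 lay close together, at chr1:118914880-118915115 and chr1:118917572-118917828 in NTD 1 and chr1:118918027-118918239 in NTD 3. They did not overlap.

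Gli3, which acts mostly as a repressor, was assigned 0, 0 and 0 brain peaks in NTD, against 1, 1 and 0 in CON (exact permutation p = 0.4). By position it had 1, 1 and 0 in NTD, against 2, 0 and 3 in CON (exact permutation p = 0.5). The NTD peaks inside Gli3 lay 88.3 and 100.2 kb from its start. Of the 5 CON peaks 4 lay 2.4 to 50.4 kb from it, and 3 of these 4 were in CON 3. The other CON peak, in CON 1, lay 226.8 kb from the start, farther than either NTD peak. Gli1, a target gene that serves as a readout of Hedgehog activity, had no peak by either count, and at 11.7 kb it is the second shortest member after Shh.

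Apart from Smo, the brain peaks of the pathway were weak, as were most peaks of these lists. All 17 assigned ones had the common background, 6 to 11 tags and a fold of 2.19 to 3.36, and none had a q at or below 0.05. List by list, 97.6% to 99.2% of all brain peaks had a q above 0.05, and 9.58% to 16.9% had a raised background. No 2 of the 17 overlapped. Of the 93 member peaks of all lists outside the Smo region, 2 overlapped a peak of another list, and these were 1 Hhip pair. Of all merged cell regions, 1.19% were held by both cell lists.

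**Figure D3:**
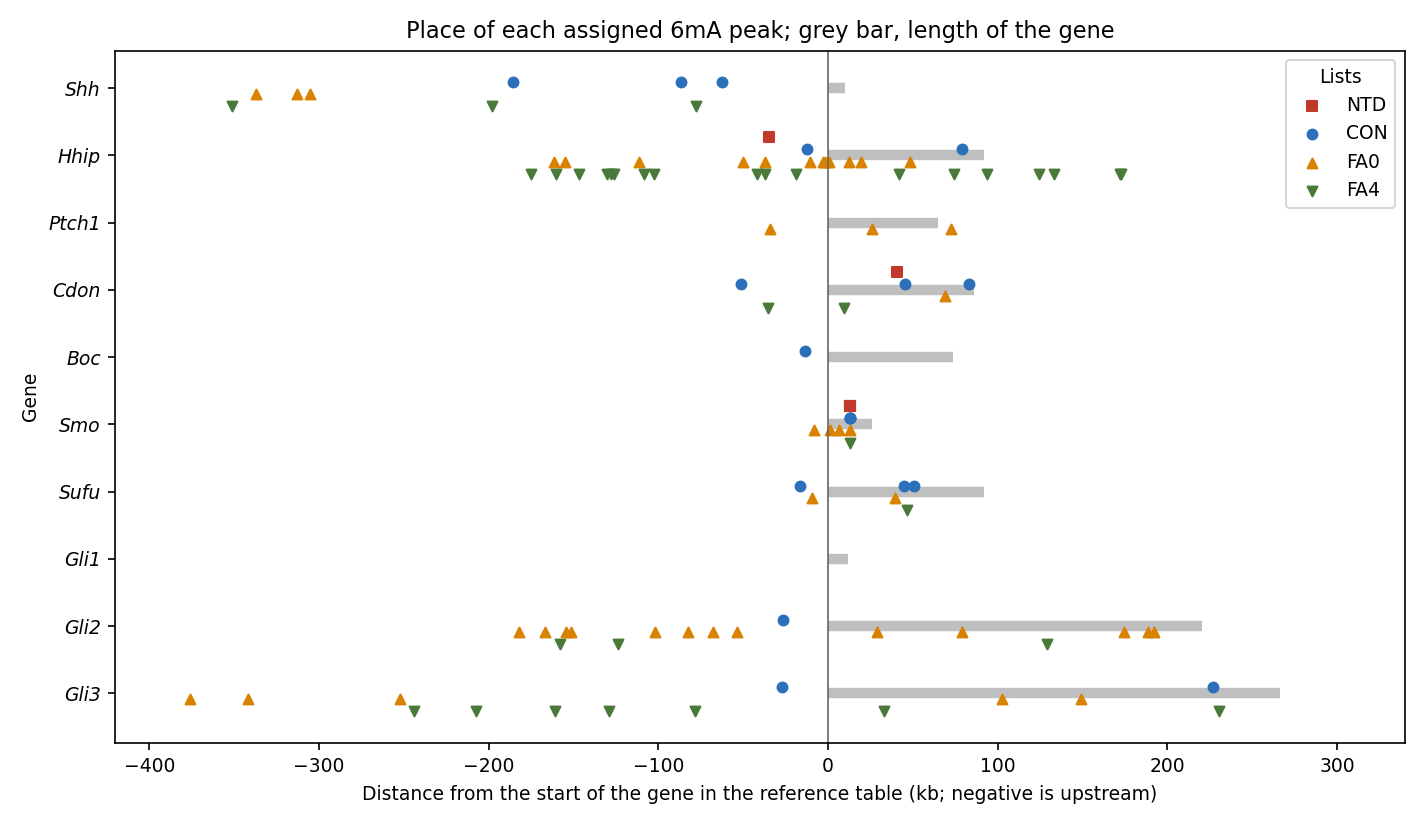
Each assigned peak by its distance from the start of the gene (x axis, kb), with 1 row per gene, colours and marker shapes for the 4 groups and a grey bar for the length of the gene. All Shh peaks and many Hhip, Gli2 and Gli3 peaks lie upstream, beyond the gene, and the Smo markers stack at 12.7 kb.

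In the stem cells the question was how 6mA was placed when folate was left out of the medium. The comparison has 1 list per condition, so no test was made and nothing can be checked against replicates. The pathway had 43 peaks in FA0 (exact Poisson 95% interval 31.1 to 57.9) and 35 in FA4 (24.4 to 48.7), and the intervals cover counting error alone. The direction was the opposite after a cut: with FA0 reduced to its leading peaks by fold, as many as FA4 has, the pathway had 16 FA0 peaks. FA4 was left whole, so its 35 was fixed in advance. The cut selects by fold, so it does not show the effect of list length alone. It left Hhip with 3 FA0 peaks and Gli2 with 4. In the uncut lists, the 43 and 35 peaks are 1.11 per 1000 peaks in FA0 and 1.73 in FA4. A peak was assigned to 8 of the 10 members in FA0 and 7 in FA4, where 48.3% and 31% of all genes did. Peaks in both were seen for 7 members, against 23.2% of all genes. Ptch1 had peaks in FA0 alone, against 25.1%, and no member in FA4 alone, against 7.85%. More peaks in FA0 than in FA4 were seen for 4 members, against 38.4% of all genes, and fewer for 3, against 12%. By position the counts were 20 peaks in FA0 and 9 in FA4, or 21.2 and 9.54 per Mb of these genes, where all genes had 16.2 and 7.81 per Mb. A peak in the span was found for 8 of 10 members in FA0 and 6 in FA4, where 33.1% and 20% of all genes had one.

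Hhip and Gli2 made up most of both counts, with 25 of the 43 peaks in FA0 (58.1%) and 21 of the 35 in FA4 (60%). Hhip had 12 peaks in FA0 and 18 in FA4, and Gli2 had 13 in FA0 and 3 in FA4. Having at least 12 peaks was true of 1.47% of all genes in FA0 and 0.58% in FA4. The remaining members had few: Gli3 had 5 in FA0 and 7 in FA4, Smo 4 and 1, Shh 3 and 3, Ptch1 3 and 0, Sufu 2 and 1, and Cdon 1 and 2.

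Gli2 stood in a stretch of chromosome 1 that was dense in FA0 as a whole. All 13 of its FA0 peaks had a raised background, 1.57 to 2.61 times the common value, and 10 to 17 tags with a median of 13. The 3 FA4 peaks were at the common background, with 7 to 9 tags. From 111 to 127 Mb of chromosome 1 the FA0 list held 674 peaks, or 42.1 per Mb, against 14.1 per Mb on the rest of the chromosome. In that stretch 98.7% of FA0 peaks had a raised background, against 30.6% elsewhere on the chromosome. FA4 held 6.94 peaks per Mb there and 7.56 on the rest of the chromosome, and the brain lists had 0.603 to 0.822 times their density elsewhere. At the left border the windows that start at 110 and 111 Mb held 6 and 44 FA0 peaks, with a median background of 1 and 1.392 times the common value. At the right border the windows that start at 126 and 127 Mb held 27 and 23 FA0 peaks, so that the peak number changed little there, while the median background was 1.513 and 1 times the common value.

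Neighbours of Gli2 had many FA0 peaks as well. Of the 33 protein-coding genes in the stretch, 93.9% had a FA0 peak and 57.6% a FA4 peak, and Gli2 ranked 10th of them by FA0 peaks. Cntnap5a led with 134 in FA0 and 24 in FA4. Windows of 1 Mb whose median background was over 25% above the common value made up 1.78% of those with 5 or more FA0 peaks, and Gli2 was the only member in one. The stretch was delimited after the data were seen, and the part of the background in the Gli2 count was not tested. With peaks at the common background alone, Gli2 had 0 peaks in FA0 and 3 in FA4.

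**Figure D4:**
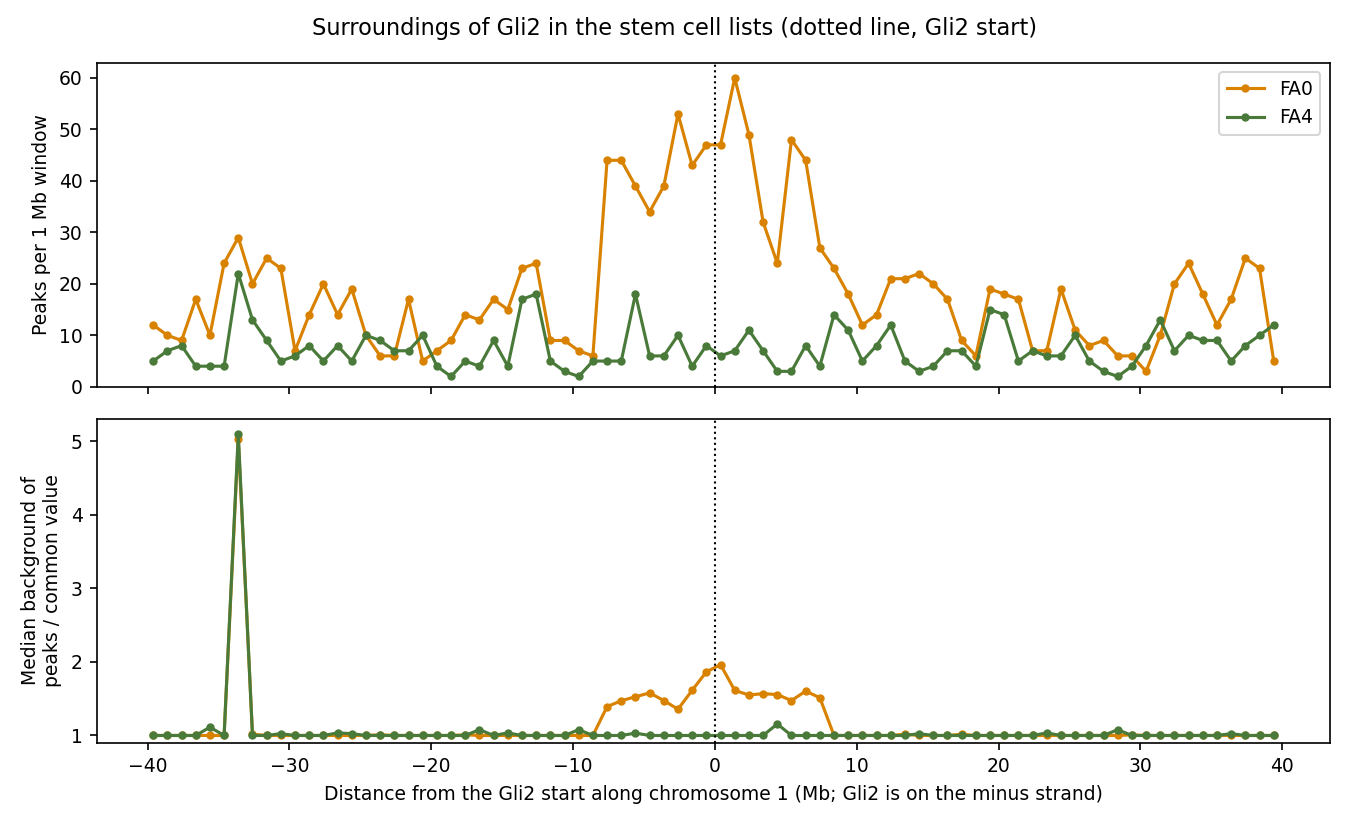
Peaks per 1 Mb window (top) and median background of those peaks over the common value (bottom) along chromosome 1, by distance from the start of Gli2, for FA0 and FA4. In FA0 the median background is raised over 16 Mb around Gli2. The FA0 peak number is higher over most of that stretch and changes little at its right border. FA4 holds 6.94 peaks per Mb there, with a median background at the common value. The background spike to the left is present in both lists.

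Hhip lay on chromosome 8, which was dense in both cell lists. Chromosome 8 held 27.9 peaks per Mb in FA0 and 29.2 in FA4, which is 1.86 and 4.19 times the density of the other autosomes. Within 1 Mb on either side of Hhip the density was 44.5 per Mb in FA0 and 37.8 in FA4, or 2.84 and 4.64 times the autosome mean. All 18 FA4 peaks of Hhip had a raised background, from just over the 1% limit up to 1.54 times the common value. So did 7 of the 12 in FA0, at up to 1.36 times. Of all peaks, 39.8% in FA4 and 35.4% in FA0 had a raised background. Of the 12 FA0 peaks, 3 lay more than 100 kb from the start, and of the 18 FA4 peaks 12 did. Among all peaks, 34.3% in FA0 and 39.3% in FA4 lay that far from the start of their assigned gene. A pair of FA0 peaks were at the promoter by the authors' classes, 0.9 kb inside the gene and 2 kb before it, each with 7 tags at the common background. One pair overlapped between the lists, at chr8:80094941-80095449 in FA0 with 10 tags and chr8:80094929-80095188 in FA4 with 11 tags, 37 kb upstream. At the common background alone, Hhip had 5 peaks in FA0 and 0 in FA4.

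**Figure D5:**
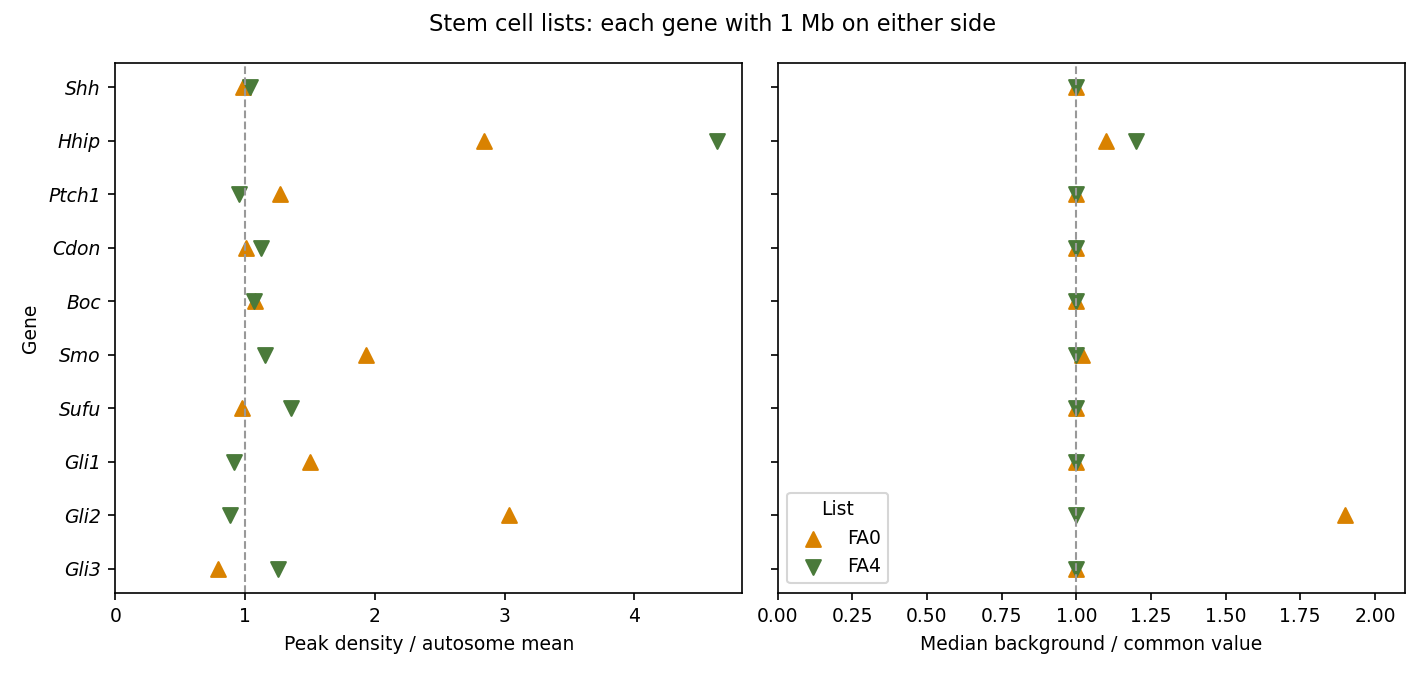
Peak density within 1 Mb on either side of each gene over the autosome mean (left) and the median background of those peaks over the common value (right), in FA0 and FA4. Hhip stands at 2.84 in FA0 and 4.64 in FA4 and Gli2 at 3.03 in FA0 and 0.886 in FA4, and the background is highest at Gli2 in FA0 (1.9) and at Hhip in FA4 (1.2).

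Single peaks at the other members were few but included the strongest by fold. An FA0 peak in an intron of Ptch1, at chr13:63547072-63547370, had 12 tags and a fold of 4.12, the highest of the 76 member peaks of the cells outside the Smo region. Its background was 1.02 times the common value. It was 1 of 3 such peaks with a q at or below 0.05. The other 2 were Gli2 peaks of FA0, at chr1:119107826-119108458 with 16 tags and chr1:119205393-119205699 with 17 tags, on a background of 1.66 and 1.97 times the common value. No FA4 peak of any member reached that q, nor did 95.3% of all FA4 peaks. In FA0 97.3% of all peaks did not reach it. Smo had 3 FA0 peaks besides the shared region, of 8, 10 and 8 tags, 8.1 kb upstream, at the promoter and in an intron. Boc had none assigned, but 1 FA0 peak of 7 tags lay inside it by position.

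The cell peaks of the pathway were set beside all peaks by the authors' feature classes, with no test. In FA0, 48.8% of the 43 were intergenic and 34.9% intronic, while all FA0 peaks were 47.8% and 33.2%. Of the 35 FA4 peaks 77.1% were intergenic and 20% intronic, while all FA4 peaks were 53.9% and 29.4%. Hhip alone gave 15 of the 27 intergenic FA4 peaks.

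The wider pathway was read from a list of 42 other Hedgehog genes that takes in processing enzymes, cilium genes and targets. By assignment it had peaks in 5, 5 and 5 genes in NTD lists, against 4, 3 and 1 in CON lists, 28 in FA0 and 17 in FA4. In brain this direction was the opposite of that of the members by the same count. Of all genes, 11.5%, 11.2% and 13.4% had a peak in the NTD lists, 5.95%, 12.9% and 8.5% in the CON lists, 48.3% in FA0 and 31% in FA4. A brain peak in NTD alone was found for 7 of the 42, against 16.4% of all genes, and in CON alone for 5, against 11%. The strictest separation, with peaks throughout one group and none in the other, was seen for 0 of the 42, against 0.365% of all genes for NTD and 0.0731% for CON. Dync2h1, a motor of transport within cilia, had 1, 4 and 1 peaks in NTD, against 1, 1 and 0 in CON, and is long at 249.8 kb. Disp1, which releases the ligand from cells that make it, had 1, 1 and 0 in NTD, against 1, 0 and 0 in CON. In the cells Mycn, a proliferation factor, had 9 peaks in FA0 and 0 in FA4, the ventral neural factor Nkx6-1 had 6 and 6, and the ligand acyltransferase Hhat had 4 and 4.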

How the data were processed

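Peak lists were made from 6mA immunoprecipitates of NTD and CON brain (3 lists each) and of FA0 and FA4 cells (1 list each). Per the submitters' processing notes, cutadapt 1.9.2 and Bowtie2 2.2.4 were used with mm10. No peak caller is named in the sources used here. Per the file headers, each list was called against an input, and Case was taken as NTD. The deposited tag count is not normalized, judged from its values, and may be the summit height. The deposited fold is a ratio of tags to background made by the authors. P-values and q-values were deposited by the authors as −log10.

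Rows were reduced to 1 per peak, and symbols were matched to RefSeq GRCm38.p6. Gene spans are those of that table, and overlap means at least 1 shared base. The brain and cell lists carry different transcript annotations. Counts per gene were compared by an exact two-sided permutation test with Benjamini-Hochberg adjustment over all genes with a brain peak (Python 3.11.15, numpy 2.4.6, pandas 2.3.3, scipy 1.17.1, matplotlib 3.10.9), tested on simulated data. The genes, lists, rule for named genes (all members, pathway genes in at least 3 brain lists and the 3 with most cell peaks) and alternatives were chosen with earlier results of these data known.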

Additional observations from a re-analysis of the deposited data

How the results depend on the processing

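By the authors' gene assignment, the mean number of member peaks per list differed by -4.33 between NTD and CON, and the number of members with a peak by -2.67. Leaving out each list in turn gave -5.33 to -2.33 for peaks and -3.33 to -1.83 for members, with -2.33 and -1.83 without CON replicate 2. With a fold of at least 5 both differences were 0, since no member peak reached it. With a q of at most 0.05 both were -0.667, from Smo alone. Peaks in the gene or promoter gave -1.67. Brain lists cut to equal length by fold, with CON 1 as the shortest left whole, gave -3.67 peaks and -3 members. Position in the span, chosen after seeing the data, gave -1 peaks and -0.333 members. The count of members called in every list of one group and no list of the other was 0 and lay between 0 and 1 on leaving out a list. It was 1 without CON replicate 1 (Sufu) or CON replicate 3 (Gli3), both in CON. Hhip, at -0.333, reversed to 0.333 without CON replicate 2 and lay between -0.667 and 0.333 over the left-out lists. Gli2, at -0.333, reversed to 1 by position. The cause of these changes was not tested.

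The Smo region was in 6 of 6 brain lists, also at an overlap of 50%, and in 4 at a q of at most 0.05 or a fold of at least 2. With the brain lists cut by fold to the length of the shortest, it was in 0 of 3 NTD lists and in CON 1 and CON 2 (difference -0.667, exact permutation p = 0.4). CON 1 set that length and was not cut, so it could not lose the region.

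The 43 peaks in FA0 and 35 in FA4 became 0 and 0 at a fold of at least 5, 4 and 0 at a q of at most 0.05, 18 and 7 in the gene or promoter, 20 and 9 by position and 17 and 13 at the common background (added after seeing the data). Cut by fold to the length of the FA4 list, FA0 had 16 against 35 in FA4, the opposite direction. FA4 was not cut, so its count could not change. The members with a peak, 8 in FA0 and 7 in FA4, became 0 and 0 at a fold of at least 5 and 3 and 0 at that q.

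Taking list number as replicate block leaves the differences at -4.33 and -2.67 by construction, since every number occurs in both groups, and no model was fitted. Paired sign-flip p-values, which cannot go below 0.25, were 0.5 or 1 for each member. Deviations of same-numbered lists from their group mean correlated at -0.012, -0.03 and -0.026 over 8374 genes. Lists of different number were not compared, so these values cannot decide whether the numbers pair the lists.

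Depth limits the text in that most member peaks rest on 6 to 17 tags, and a member without a peak may still carry 6mA below detection.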

Other observations

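Per Mb of gene, the 10 Hedgehog genes held 4.24, 5.3 and 3.18 peaks in NTD lists, where all protein-coding genes held 2.25, 2.19 and 2.8. In CON lists they held 4.24, 5.3 and 6.36, where all genes held 1.08, 2.65 and 1.59. At most 6 peaks stand behind each of these densities, and Smo gives 1 of them in every brain list.

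Other genes of the dense stretch around Gli2 were chosen by their peak numbers and are given as values. Dsel had 99 peaks in FA0 and 25 in FA4, Dpp10 had 63 and 8, Tsn had 56 and 7, and Inhbb had 14 and 0. In the brain lists Inhbb had none, and Dpp10 had 1, 2 and 7 in NTD, against 1, 0 and 1 in CON. In FA4, 3.17% of the 1 Mb windows with 5 or more peaks had a median background over 25% above the common value, and none of the 10 Hedgehog genes lay in one.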
